A study of Homo sapiens with 6 samples.

Results

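The 31 genes described here are p53 target genes, the regulators MDM2, MDM4 and PPM1D, and the secreted factor GDF15. The rule takes them by symbol, as known p53 targets outside apoptosis and DNA repair, and uses no measured value, but it was set with earlier results of these data known. All 31 have a row among the 19912 rows of the mRNA table. The libraries were labelled as PANC-1 cells resistant to gemcitabine, a nucleoside drug. PANC-1 is an epithelial line from a human ductal carcinoma of the pancreas. One group of 3 libraries was labelled control and the other group of 3 was labelled shSRSF3, a short hairpin RNA against the splicing factor SRSF3. The labels name no batch, clone, drug exposure at harvest or separate culture, so the p-values cover no more than the spread among these libraries, which may be technical. PANC-1 is generally described as carrying a missense mutant p53, and the p53 genotype of these libraries was not examined.

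p53 is a transcription factor that is held at a low level by MDM2, a ubiquitin ligase whose gene is itself a p53 target, and by the related inhibitor MDM4. Stress such as DNA damage releases p53 from this loop, and its targets then slow the cell cycle, change metabolism or lead to cell death. Many of these targets also answer to other inputs. GDF15, a secreted cytokine of the TGF-beta superfamily, is also induced by the integrated stress response, and PLK2, PLK3, BTG2, IER3 and IER5 belong to the genes that growth factors switch on early.

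The p53 binding site consists of a pair of half-sites of 10 bases, each with a C and a G that are kept in its core. In RefSeq promoter windows of 300 bases (GRCh38.p14, 250 before to 50 after a transcript start), 26 of the 31 genes had an entry. A site of 20 bases, made of both half-sites side by side with the C and G of each core kept and at most 3 mismatches to the consensus, was found in windows of 5 of these 26 genes. It occurred in 1.12% of all 35116 windows, which is a share of windows and not of genes, and the 26 genes had 35 windows. The genes were taken as known p53 targets, so the count of 5 is no test of enrichment. These 5 sites are shown because they include GDF15, which rose in the libraries labelled knockdown, and MDM2, which did not pass the test. Capitals mark the 4-base core of each half-site.
GDF15, chr19:18386186-18386205, plus strand, bases 29 to 48 after the start: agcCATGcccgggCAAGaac
AEN, chr15:88621306-88621325, plus strand, bases -34 to -15: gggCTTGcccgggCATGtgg
MDM2, chr12:68808923-68808942, plus strand, bases -94 to -75 of a start listed inside the gene: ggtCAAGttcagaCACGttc
FDXR, chr17:74872996-74873015, minus strand, bases -21 to -2: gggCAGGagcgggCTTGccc
SESN1, chr6:109009018-109009037, minus strand, bases -49 to -30: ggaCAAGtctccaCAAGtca

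The AEN and MDM2 sites had 2 mismatches and the other 3 sites had 3. Of the 5 genes, GDF15 and AEN were higher in the libraries labelled knockdown, while MDM2, FDXR and SESN1 did not pass the test. A match is a string of letters and no measure of binding. CDKN1A, EPHA2, PLK2, PLK3, BTG2, SERTAD1 and PERP had a window and no such match within it, and PHLDA3 had no window. Sequence outside the windows was not searched, so a gene without a match may have a site elsewhere.

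The last 100 bases before the start are printed for GDF15 and EPHA2, the members with the largest changes, with motif matches on either strand in capitals.
GDF15, chr19:18386058-18386157, plus strand: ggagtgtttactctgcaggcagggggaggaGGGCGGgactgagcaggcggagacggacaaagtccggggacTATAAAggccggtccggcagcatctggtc
EPHA2, chr1:16156070-16156169, minus strand: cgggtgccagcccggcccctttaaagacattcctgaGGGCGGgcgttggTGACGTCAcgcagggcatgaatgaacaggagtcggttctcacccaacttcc

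The motifs searched were the GC box GGGCGG, found in 44.95% of all windows, CCAAT (34.61%), the TATA box TATAAA (11.53%), the AP-1 motif TGANTCA (7.71%), the E-box CACGTG (7.26%) and the cAMP response element TGACGTCA (1.85%). In these stretches GDF15 had a GC box and a TATA box, and EPHA2 a GC box and a cAMP response element. Over their whole windows, 22 of the 26 genes had a GC box and 3 had a TATA box, which BTG1 and GADD45B also carried.

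Values are deposited FPKM, fragments scaled by gene length and library total, and their steps give library totals of 24558239 to 27351642 fragments. SRSF3, the target of the hairpin, stood at 37.0, 39.6 and 39.2 FPKM in control libraries 1 to 3 and at 37.0, 37.1 and 38.6 FPKM in libraries 1 to 3 labelled knockdown, so the groups overlapped and no fall was detected (exact permutation p = 0.3, where 0.1 is the smallest that 3 against 3 allows). Every direction below is therefore that of libraries carrying the label. Knockdown library 1 stood apart, with 13 mitochondrial mRNAs making up 32.1% of its summed FPKM against 25.6% to 26.2% in controls and 27.5% and 25.7% in knockdown libraries 2 and 3. The summed FPKM of all mRNA rows was 275400 to 285700 in controls and 287100 to 336900 in the libraries labelled knockdown. The main test did not rescale the values for this difference. Of 6 epithelial markers, KRT8, KRT18, KRT19, EPCAM and CDH1 were abundant, with a summed level of 3569 to 3780 FPKM in controls and 3730 to 4691 FPKM in the other group, and KRT7 stayed at or under 0.241 FPKM. The mesenchymal gene VIM, which PANC-1 is generally described as expressing, was at 0.00709 to 0.0389 FPKM, and the identity of the line was not tested. Among markers of other cell types, the 6 of fibroblasts summed to at most 0.4003 FPKM and the 3 of endothelium to at most 0.277 FPKM, while the 5 of leukocytes summed to 2.42 to 2.80 FPKM in controls and 2.64 to 2.68 FPKM in the other group, with CD14 from 112 to 138 fragments per library and PTPRC and LYZ listed at 0 in all 6.

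In bulk RNA, fewer cells that express a gene and less of its RNA per cell cannot be told apart. Of the 31 genes, 29 had a mean of at least 0.5 FPKM and were tested. In the libraries labelled knockdown, 10 were higher and 0 were lower by limma on log2(FPKM + 1) with Benjamini-Hochberg adjustment over all 10823 tested genes. At an unadjusted p under 0.05 the counts were 11 and 2, and the share of all genes at that cutoff is not given here. With voom on recovered fragments, adjusted, they were 10 and 1, beside 1277 and 760 of all 10799 genes in that fit. Over all tested genes, 10.9% were higher and 5.91% were lower by adjusted limma, so 10 of 29, or 34.5%, compares with 10.9%. More abundant genes passed more often. Among the 6311 genes whose mean reached 5 FPKM, 19.1% were higher, beside the same 10 genes of 22 members. The genes called higher were GDF15, EPHA2, PLK3, PLK2, AEN, PHLDA3, SERTAD1, BTG2, CDKN1A and PERP, with log2 changes from 0.58 down to 0.20 and no ratio of means reaching 1.5. The 19 others lay between -0.17 and 0.13. The median over the 29 genes was 0.03 (log2), beside 0.02 for all tested genes. It was 0.10 beside 0.05 over the 22 members and all genes whose mean reached 5 FPKM, 0.01 beside 0.02 without control library 3, 0.02 beside 0.0035 with quantile normalization, and -0.01 beside 0.0032 with no filter.

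Counting libraries in place of p-values, 11 of the 29 genes had all 3 knockdown values above all 3 control values, against 22.6% of all tested genes, and 2 had them all below, against 15.3%. The 10 genes called higher were all among the 11, and POLH was the other. With quantile normalization the split of all called genes moved from 1179 higher and 640 lower to 817 and 808, and 8 of the 29 genes were then higher and 1 lower.

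**Figure D1:**
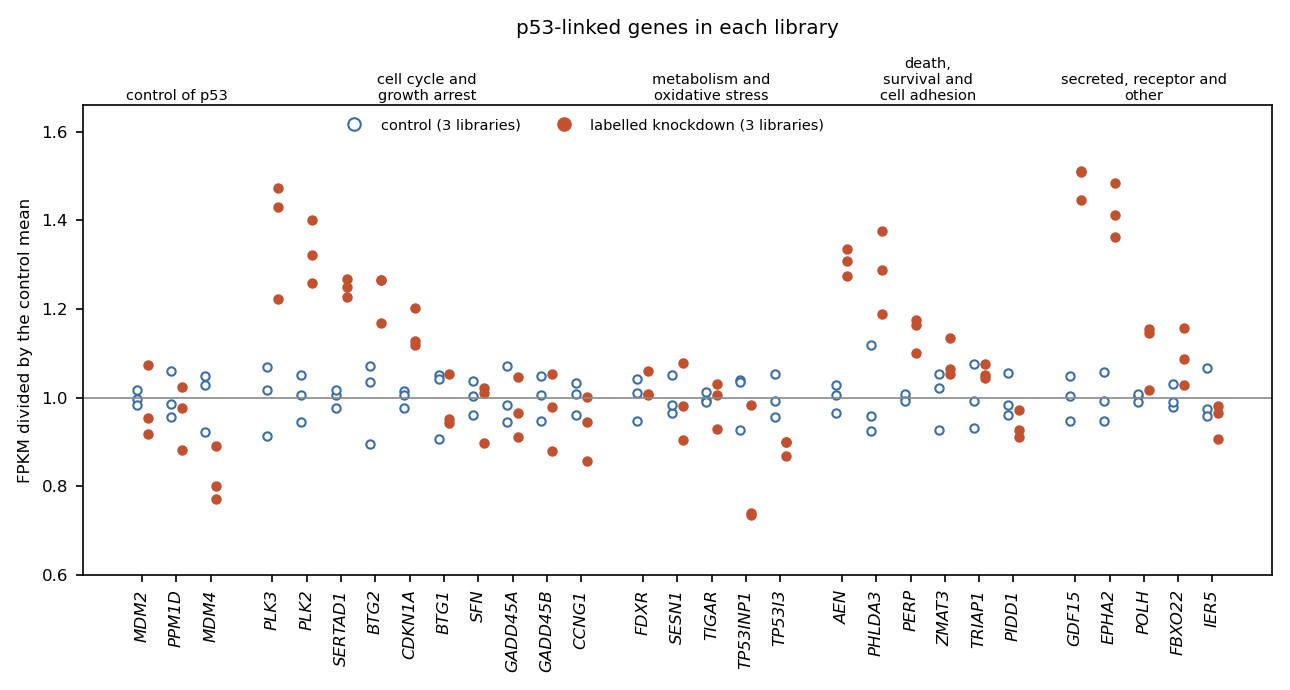
Each point is 1 library, as FPKM divided by the control mean of that gene, for the 29 tested genes grouped by role. Filled points, the libraries labelled knockdown, lie above all open control points for the 10 genes called higher and for POLH, and below them for MDM4 and TP53I3.

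**Figure D2:**
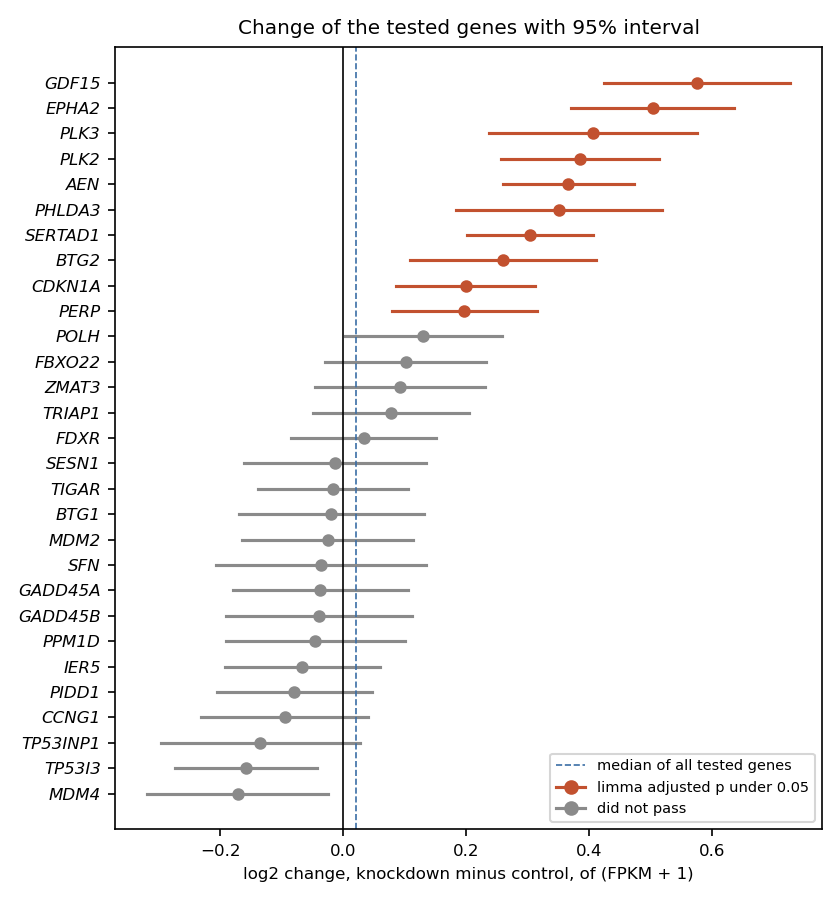
The log2 change of (FPKM + 1) of each tested gene is plotted as a point, with its 95% interval from limma as a bar, and the dashed line marks the median of all tested genes. The 10 genes that passed lie between 0.20 and 0.58, and the other 19 between -0.17 and 0.13.

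Of the 3 controllers of p53, 0 passed by limma, while 1, MDM4, was lower at an unadjusted p under 0.05 and with voom. Over all tested genes 10.9% were higher and 5.91% lower by limma, so 0 of 3 is not read as a difference. MDM2 had control values of 5.69, 5.81 and 5.61 FPKM and values of 5.23, 5.44 and 6.12 FPKM under the knockdown label, with 1780 to 2219 fragments per library. Its groups overlapped, and the 95% interval of its log2 change ran from -0.16 to 0.11 (limma adjusted p = 0.807). MDM4, its partner, had control values of 1.55, 1.76 and 1.73 FPKM and values of 1.496, 1.35 and 1.29 FPKM under the knockdown label. All 3 of these knockdown values lay below the controls, but the log2 change of -0.17 (SE 0.07) did not pass (limma adjusted p = 0.0991, and 0.0435 with voom on recovered fragments, where the log2 change was -0.29). With a pseudocount of 0.1 the log2 change was -0.27. PPM1D, the WIP1 phosphatase that switches p53 signalling off, had 3.68 ± 0.196 and 3.53 ± 0.268 FPKM (mean ± SD, n = 3 per group) and an interval from -0.19 to 0.10.

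In the cell cycle group, 5 of 10 genes were higher, against 10.9% of all tested genes. CDKN1A, which encodes the p21 inhibitor of cyclin-dependent kinases, had control values of 102.9, 102.0 and 98.95 FPKM and values of 114.3, 121.8 and 113.3 FPKM under the knockdown label. Its groups did not overlap, with the highest value in knockdown library 2, and the means of 101.3 ± 2.07 and 116.5 ± 4.65 FPKM differ by 15.0% (log2 0.20, SE 0.05, limma adjusted p = 0.0261).

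Both polo-like kinase genes of the stress response were higher. PLK2, a kinase of centriole duplication and checkpoint signalling, had control values of 13.6, 14.5 and 15.1 FPKM and values of 18.1, 20.2 and 19.0 FPKM under the knockdown label. PLK3 was at 6.77, 7.12 and 6.09 FPKM in controls against 9.51, 9.81 and 8.14 FPKM. The rises were 32.7% and 37.5% (log2 0.38, SE 0.06, limma adjusted p = 0.00282 for PLK2, and log2 0.41, SE 0.08, adjusted p = 0.00742 for PLK3), and neither pair of groups overlapped.

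SERTAD1, a binding partner of the cell cycle kinase CDK4, had control values of 17.0, 17.2 and 16.5 FPKM and values of 21.4, 20.7 and 21.1 FPKM under the knockdown label. All 3 knockdown values lay above the controls, a rise of 24.8% (log2 0.30, SE 0.05, limma adjusted p = 0.00297). Of the related antiproliferative genes BTG1 and BTG2, BTG2 passed. It had control values of 5.52, 5.34 and 4.62 FPKM and values of 6.03, 6.53 and 6.52 FPKM under the knockdown label, with no overlap (log2 0.26, SE 0.07, limma adjusted p = 0.0283). BTG1 was at 4.27 ± 0.343 and 4.19 ± 0.261 FPKM, with an interval from -0.17 to 0.13 that reaches above the lower bound of BTG2, 0.11, and the difference between the genes was not tested.

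SFN, the stratifin gene of the G2 checkpoint, was the most abundant member and ranked 27 in control mean among all mRNA rows. It had control values of 916.8, 886.2 and 849.1 FPKM and values of 903.0, 892.6 and 793.7 FPKM under the knockdown label, and these groups overlapped (interval from -0.21 to 0.13). The growth arrest gene GADD45A was at 35.2, 31.1 and 32.3 FPKM against 29.9, 31.7 and 34.4 FPKM, and these groups overlapped too (interval from -0.18 to 0.10). Its relative GADD45B was at 6.74 ± 0.345 and 6.54 ± 0.589 FPKM (interval from -0.19 to 0.11). For CCNG1, a cyclin that recruits a phosphatase to MDM2, control values were 21.2, 22.8 and 22.3 FPKM and those under the knockdown label 18.96, 20.9 and 22.2 FPKM (interval from -0.23 to 0.04).

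Of the 5 genes of metabolism and oxidative stress, 0 passed by limma or with voom, and 1, TP53I3, was lower at an unadjusted p under 0.05. By limma 10.9% of all tested genes were higher and 5.91% lower, so 0 among so few genes is not read as a difference. FDXR, a mitochondrial reductase that feeds electrons to ferredoxin, had control values of 13.4, 12.96 and 12.2 FPKM and values of 12.9, 13.6 and 12.9 FPKM under the knockdown label, and its groups overlapped. TP53I3, a quinone reductase-like enzyme, had control values of 16.5, 15.0 and 15.5 FPKM and values of 14.1, 14.1 and 13.6 FPKM under the knockdown label. All of its knockdown values lay below the controls, with a log2 change of -0.16 (SE 0.05) and a limma adjusted p = 0.0629. That p was 0.0192 with quantile normalization and 0.0472 over genes with a mean of at least 5 FPKM. TIGAR, a phosphatase that lowers glycolytic flux, had 7.92 ± 0.0961 and 7.82 ± 0.425 FPKM, and SESN1, a sestrin that restrains mTORC1, had 2.28 ± 0.103 and 2.26 ± 0.200 FPKM. TP53INP1, a cofactor in p53 signalling and autophagy, had 0.946 ± 0.0605 and 0.775 ± 0.134 FPKM from 99 to 144 fragments per library, and knockdown library 3 lay among the controls.

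Of the 6 tested genes of death, survival and adhesion, 3 were higher, against 10.9% of all tested genes. AEN, a nuclease of the apoptotic nucleus, had control values of 17.4, 17.8 and 16.7 FPKM and values of 22.6, 23.1 and 22.0 FPKM under the knockdown label. Its groups did not overlap, with a rise of 30.6% (log2 0.37, SE 0.05, limma adjusted p = 0.00148). PHLDA3, which blocks AKT at the membrane, had control values of 28.7, 24.6 and 23.7 FPKM and values of 30.5, 35.3 and 33.1 FPKM under the knockdown label. Control library 1 came close to the lowest knockdown value, though the groups did not overlap, and PHLDA3 had the highest relative spread in controls of all tested members, 10.4% (log2 0.35, SE 0.08, limma adjusted p = 0.0132).

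PERP, a tetraspan protein of desmosomes, had control values of 205.4, 207.1 and 204.0 FPKM and values of 239.2, 226.4 and 241.7 FPKM under the knockdown label, with no overlap (log2 0.20, SE 0.05, limma adjusted p = 0.0314). Its controls agreed most closely of all tested members, with a coefficient of variation of 0.777%, against a median of 5.11% over the 29 genes. TRIAP1, a small mitochondrial survival protein, was at 18.1, 19.2 and 20.8 FPKM against 20.4, 20.8 and 20.2 FPKM, so control library 3 lay level with the highest knockdown value. ZMAT3, an RNA-binding zinc finger protein, had 3.43 ± 0.228 and 3.72 ± 0.154 FPKM, and PIDD1, a scaffold that activates a caspase, had 5.74 ± 0.284 and 5.38 ± 0.179 FPKM. The groups overlapped in both.

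The receptor gene EDA2R had 0 to 2 fragments per library, and IER3, an early response gene with a role in survival, had 2 to 6. Neither was tested. IER3 lies in the major histocompatibility region, and its neighbours were also nearly without signal. In the RefSeq gene order (GRCh38.p14), 36 of the 40 nearest protein-coding genes with a row, 20 on each side, stayed under 0.5 FPKM in all 6 libraries, against 44.0% of all mRNA rows, and 28 were listed at 0 in every library, against 18.1%. The 28 include TUBB, ABCF1, FLOT1, MRPS18B and DHX16, which most cell types use and which were named after their values were seen. The listed level of IER3 is therefore not read here as its expression, and the cause was not tested.

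In the remaining group, GDF15 and EPHA2 had the largest changes of all members. GDF15 had control values of 595.9, 569.5 and 537.9 FPKM and values of 857.0, 858.9 and 821.6 FPKM under the knockdown label, from 30379 to 46811 fragments per library. All 3 knockdown libraries lay above the highest control. The means were 567.8 ± 29.0 and 845.9 ± 21.04 FPKM, a rise of 49.0% (log2 0.58, SE 0.07, 95% interval from 0.42 to 0.73, limma adjusted p = 0.000798). In controls GDF15 ranked 39 by mean FPKM in the mRNA table.

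EPHA2, a receptor tyrosine kinase for ephrins, had control values of 139.0, 130.4 and 124.4 FPKM and values of 179.0, 195.0 and 185.3 FPKM under the knockdown label. It rose by 42.01% without overlap (log2 0.50, SE 0.06, limma adjusted p = 0.000799). POLH, a DNA polymerase that copies past ultraviolet lesions, had control values of 9.79, 9.83 and 9.65 FPKM and values of 11.2, 11.3 and 9.92 FPKM under the knockdown label, the third of which lay just above the controls. Its log2 change of 0.13 (SE 0.06) did not pass (limma adjusted p = 0.146), and it did without knockdown library 3 (0.0257). A transcript antisense to it, POLH-AS1, was at 0.535 to 1.662 FPKM (controls) and 0.649 to 0.907 FPKM, and strand use in counting was not given in the sources used here. IER5, an early response gene, was at 15.7, 14.4 and 14.1 FPKM against 13.4, 14.5 and 14.2 FPKM, and FBXO22, a ubiquitin ligase subunit, had 4.22 ± 0.117 and 4.601 ± 0.271 FPKM. The groups of both overlapped.

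**Figure D3:**
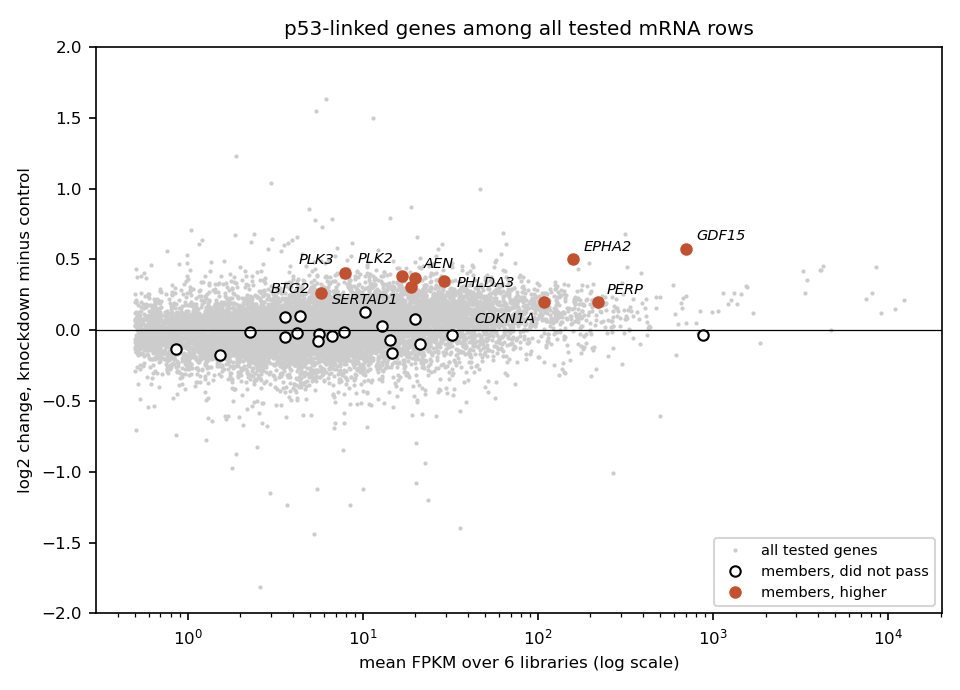
Each grey dot is 1 of the 10823 tested genes, placed by its mean FPKM over 6 libraries on a log axis and its log2 change, and circles are the 29 members. GDF15, at the right, combines a high level with a log2 change of 0.58, while SFN at a similar level stays near 0.

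Of the 10 genes called higher, 6 passed under every one of 14 alternative settings, namely GDF15, EPHA2, AEN, PLK2, SERTAD1 and PLK3. For GDF15 the log2 change ran from 0.49 to 0.61 over these settings, with a largest limma adjusted p = 0.0145. All 10 passed without knockdown library 1, and 8 of the 10 had their highest value in knockdown library 2. CDKN1A no longer passed when control library 1 was left out (adjusted p = 0.0700), nor without control library 2 (0.107) or 3 (0.119), knockdown library 2 (0.0996) or with quantile normalization (0.182, log2 0.09). The PERP call was lost without control library 1 (0.0987), 2 (0.130) or 3 (0.127), without knockdown library 2 (0.0540), with no filter (0.0533) and with quantile normalization (0.249, log2 0.09). BTG2 was lost without control library 2 (0.0701) or 3 (0.120), without knockdown library 2 (0.0938) and with no filter (0.0816). PHLDA3 was lost in the same settings as BTG2, with adjusted p = 0.0583, 0.0601, 0.0568 and 0.0597.

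**Figure D4:**
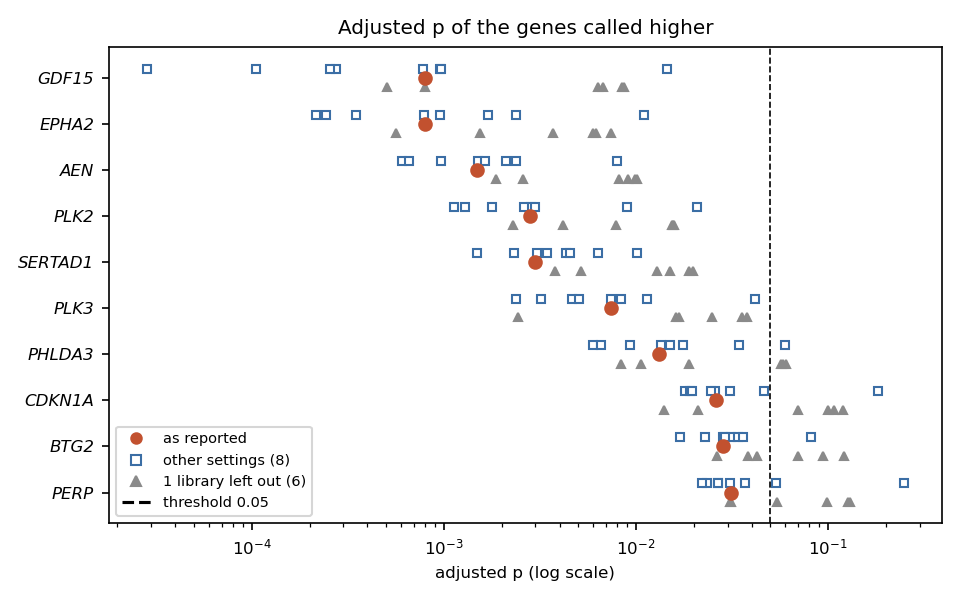
The adjusted p of the 10 genes called higher is shown on a log axis as reported, under 8 other settings and with each of the 6 libraries left out, and the dashed line is the threshold of 0.05. GDF15, EPHA2, AEN, PLK2, SERTAD1 and PLK3 stay left of the line in every setting, and PHLDA3, CDKN1A, BTG2 and PERP cross it in some.

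Other genes of the pathway were read from lists of the same kind. Of 11 apoptosis targets of p53, 2 were higher and 1 was lower, where the shares over all tested genes are 10.9% and 5.91%. The decoy death receptor gene TNFRSF10D went from 19.03 ± 0.306 to 22.8 ± 0.743 FPKM and BAX, a pore former of mitochondria, from 48.4 ± 0.450 to 56.1 ± 3.64 FPKM, while APAF1, of the apoptosome, went from 4.99 ± 0.0950 to 3.91 ± 0.411 FPKM (limma adjusted p = 0.00786, 0.0307 and 0.0193). The TNFRSF10D call was lost without control library 2 (0.0529), the APAF1 call without any 1 control library (0.0638 to 0.0661) and with no filter (0.0654), and the BAX call in 6 settings with adjusted p up to 0.193. Of 5 repair targets, among them DDB2 at 7.71 ± 0.408 and 7.0 ± 0.741 FPKM, 0 passed by limma, by voom or at an unadjusted p under 0.05. Of 18 further targets tested, CYFIP2, an actin regulator, alone passed, from 5.26 ± 0.262 to 6.44 ± 0.268 FPKM (limma adjusted p = 0.0183), which was lost without control library 2 (0.0666) or 3 (0.0882) or knockdown library 2 (0.0629). The medians of these lists were 0.01, -0.05 and 0.02 (log2), against 0.02 for all tested genes.

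Among 20 tested activators, cofactors and relatives of p53, 2 were higher and 1 was lower, close to the 10.9% and 5.91% of all tested genes. PPP1R13L, an inhibitor of p53, rose by 0.28 and COP1, a ubiquitin ligase that acts on p53, by 0.21 (log2). ATM, the kinase that signals double-strand breaks to p53, went from 1.51 ± 0.184 to 0.999 ± 0.154 FPKM (log2 -0.33). The limma adjusted p of these 3 were 0.0160, 0.0210 and 0.0220. Each call was lost in 3 to 5 settings, with the largest adjusted p = 0.0752 for PPP1R13L (without control library 3), 0.0973 for COP1 (without control library 2) and 0.0997 for ATM (without control library 3).

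Of 15 genes that p53 represses through p21 and the DREAM complex, 7 were lower and 2 were higher, against 5.91% and 10.9% of all tested genes, with a median of -0.13 (log2). CCNA2, the S and G2 phase cyclin, went from 26.2 ± 0.708 to 20.8 ± 1.197 FPKM and the transcription factor gene MYBL2 from 57.1 ± 1.195 to 43.1 ± 4.52 FPKM, while KIF20A and CDC25C had log2 changes of -0.41 and -0.30 (limma adjusted p = 0.00476, 0.00490, 0.00510 and 0.00734). E2F1 and CDC25A, named after their values were seen, were the 2 that rose, by 0.23 and 0.26 (log2).

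The lists tied to other inputs of the members had medians of opposite sign. In the integrated stress response, 7 of 12 tested genes were lower and 0 were higher, against 5.91% and 10.9% of all tested genes, with a median of -0.24 (log2). The part of this list in the GDF15 result was not tested. At an unadjusted p under 0.05, 8 were lower and 1 was higher, and with voom 7 and 1. DDIT4, an inhibitor of mTORC1, fell from 29.96 ± 1.48 to 15.3 ± 2.38 FPKM and CHAC1, which degrades glutathione, from 38.3 ± 1.93 to 28.6 ± 2.38 FPKM (limma adjusted p = 2.87e-04 and 0.00352). All 3 knockdown values lay below the controls in 8 of the 12 genes and above them in 2, against 15.3% and 22.6% of all tested genes. Those 2, PPP1R15A and ATF3, named after their values were seen, did not pass. PPP1R15A went from 73.6 ± 2.88 to 87.0 ± 9.20 FPKM (limma adjusted p = 0.0502). Of 15 immediate early genes, 7 were higher and 0 were lower, against 10.9% and 5.91% of all tested genes, with a median of 0.18 (log2), and 8 and 0 at an unadjusted p under 0.05 and 7 and 0 with voom. CYR61, also named CCN1, rose from 15.6 ± 0.871 to 25.1 ± 0.667 FPKM and FOSL1 from 48.4 ± 2.33 to 78.6 ± 8.03 FPKM (limma adjusted p = 7.76e-05 and 0.000427). The immediate early genes summed to 285.5 to 305.3 FPKM in controls and 371.8 to 390.2 FPKM in the libraries labelled knockdown, and their part in the rise of PLK2, PLK3 and BTG2 was not tested.

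**Figure D5:**
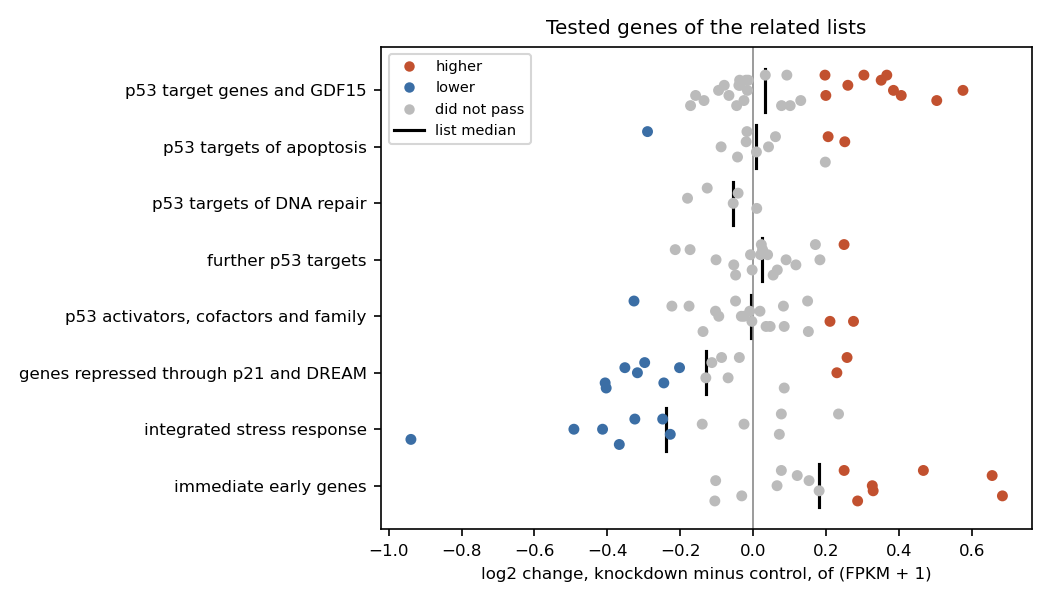
Each point is 1 tested gene, placed by its log2 change of (FPKM + 1), with the list named at the left, colour for the limma call and a black bar for the list median. The medians are 0.03 for the p53 target genes and GDF15, -0.13 for genes repressed through p21 and DREAM, -0.24 for the integrated stress response and 0.18 for immediate early genes.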

How the data were processed

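RNA-seq of 6 libraries, 3 per group, was read from tables of FPKM deposited by the authors, with 19912 mRNA rows and 14145 lncRNA rows. Per the submitters' processing notes, the tools included edgeR, Cuffdiff, StringTie and HISAT2. Tool roles, genome build, annotation and strand use were not given in the sources used here. Whole fragments were recovered from the FPKM steps for 14776 of 14803 mRNA rows above 0 in at least 3 libraries (99.818%, within a tolerance of 0.003 fragments).

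Values were tested as log2(FPKM + 1) with limma 3.58.1 (trend, R 4.3.3) over the 10823 mRNA rows whose mean reached 0.5 FPKM, with Benjamini-Hochberg adjustment and a threshold of 0.05. Differences on this scale understate the change of low genes. The fit was also run on simulated fragments that had the same spread in both groups. The real libraries labelled knockdown differed more among themselves than the controls did, so that run does not show how reliable the calls are here. Alternatives were another pseudocount, other filters, median scaling, quantile normalization, robust variances, voom on the recovered fragments, a replicate block and leaving out each library. Where an exact permutation test was used it was two-sided.

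The members and gene lists were chosen with earlier results of these data known. By the naming rule, members that passed or had a group mean of at least 10 FPKM were given by library and the others in less detail, and up to 4 genes with the smallest p were named from each other list. Values by library of MDM2, MDM4 and POLH, which fall outside it, were added after they were seen. The promoter motifs and lncRNAs were chosen after values were seen. Promoter windows came from RefSeq (GRCh38.p14).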

Additional observations from a re-analysis of the deposited data

How the results depend on the processing

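The count of 10 members higher became 7 with no filter and 8 with quantile normalization, and ran from 6 to 11 with 1 library left out, lowest without control library 2 or 3 or knockdown library 2. Of all tested genes, 10.9% were called higher as reported, 3.6% with no filter and 7.5% with quantile normalization. With 1 library left out that share ran from 3.6% to 16.4%. The count of 0 members lower became 1 over genes whose mean reached 5 FPKM and with quantile normalization (TP53I3) and 1 with voom (MDM4). Over all genes, 1819 were called as reported, 960 with no filter, and 647 to 2742 with 1 library left out (1082 without control library 1, 647 without 2, 651 without 3, 844 without knockdown library 2). With a replicate block 2323 genes were called, 10 of them members. The numbers share no stated origin, the correlations of same-numbered libraries were 0.0776, 0.0385 and 0.279, and control library 1 correlated best with knockdown library 2. Directions changed in 11 genes that had not passed. With 1 library left out the log2 change ran from -0.0819 to 0.0143 for MDM2, -0.0828 to 0.0016 for PPM1D, -0.0887 to 0.0114 for GADD45A, -0.0926 to 0.0204 for GADD45B, -0.075 to 0.0098 for BTG1, -0.0699 to 0.0231 for SFN, -0.0588 to 0.0294 for SESN1, -0.0432 to 0.0237 for TIGAR, -0.0025 to 0.0611 for FDXR and -0.0366 to 0.0398 for CD14. With quantile normalization it was 0.0171 for SESN1, -0.0105 for FDXR and -0.0033 for KRT8. The cause was not tested. Of 924 values of single genes under alternatives, 816 kept direction and side of the threshold. IER3 and EDA2R had at most 6 fragments per library, too few to show a difference between the groups.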

Other observations

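Long non-coding RNAs linked to p53 were read from the separate lncRNA table, and were chosen after their values were seen. NEAT1, the scaffold of paraspeckles, had control values of 2.50, 2.61 and 2.48 FPKM and values of 1.87, 1.87 and 1.91 FPKM under the knockdown label. All knockdown values lay below the controls (exact permutation p = 0.1, two-sided, the smallest that 3 against 3 allows). MIR34AHG, the host of the p53-induced microRNA miR-34a, had 0.424 ± 0.0632 and 0.313 ± 0.0340 FPKM (n = 3 per group), also without overlap (exact permutation p = 0.1). Both of its means lay under the 0.5 FPKM that mRNA rows had to reach to be tested. The share of lncRNA rows with all knockdown values below the controls was not computed, and among tested mRNA rows it was 15.3%. TP53TG1 had 2.03 ± 0.310 and 2.29 ± 0.832 FPKM with overlapping groups (exact permutation p = 0.6), and PANDAR, PURPL and DINOL were listed at 0 in all 6 libraries.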
